A study of Mus musculus with 60 samples.

Results

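The keratin genes are the genes of the counts table whose mouse symbol is Krt followed by a number and at most 1 letter, which leaves out the keratin-associated proteins and the pseudogenes marked as such. The rule found 54 of the 54532 genes in the table, 28 of type I and 26 of type II. Each was measured by whole-tissue RNA sequencing from the 3′ ends of polyadenylated RNA in 60 libraries, 4 replicates from each of 15 tissues of female C57BL6/J mice aged 6 weeks. The tissues were skin, female reproductive tract, small intestine, colon, lung, liver, kidney, thymus, inguinal lymph node, mesenteric lymph node, spleen, bone marrow, blood, heart and brain. The labels name no allele or treatment beyond the perfusion of all mice with PBS containing 1 mM EDTA before the tissues were taken. The blood samples are called whole blood under tissue and PBMC in their titles. The replicates are described as replicates of mice, but no label says which libraries came from the same mouse, so a p-value here measures the spread between libraries.

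Keratins are the intermediate filament proteins of epithelial cells. A filament is built from pairs of a type I chain, which is acidic, and a type II chain, which is neutral or basic, so an epithelial cell makes both. Simple epithelia such as the gut lining are known for KRT8 and KRT18, with KRT19, KRT7 and KRT20 in some organs. The dividing basal layer of stratified epithelia makes KRT5 and KRT14, the layers above it in the epidermis make KRT1 and KRT10, and the hair shaft and its sheaths have keratins of their own. In the mouse the type I genes lie in a cluster on chromosome 11 and the type II genes in a cluster on chromosome 15, with Krt18, a type I gene, beside Krt8 at the end of the type II cluster. Of the 54 genes 27 lay on each of these chromosomes.

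Levels are given as CPM, the count of a gene scaled to a fixed library total, after TMM scaling, which corrects library totals for a few abundant genes. Counts came from 3′ ends, so they were not divided by gene length, and a comparison between genes assumes that each transcript gives about 1 counted end. Library totals ran from 353605 to 5211133 counts with a median of 2649668. Of the 54 genes 29 had a mean of at least 5 CPM in some tissue, 6 reached 1 to 5 CPM and 19 stayed under 1 CPM everywhere, including Krt34, Krt40 and Krt74, which had no count. In tests a gene was called when its Benjamini-Hochberg adjusted p from edgeR's quasi-likelihood test was below 0.05 and its log2 fold change was above 1 in size. Where a tissue was tested against the mean of the others, that mean was of log levels. A gene called higher in a tissue can thus lie far below its level in another. Only 27 of the 54 passed the filter on low counts, all 6 simple, 17 of 21 stratified, 3 of 24 hair genes and 1 without a class. Each passed through the tissues in which it is high, so the counts below speak only of those 27. In whole tissue, fewer cells of a type cannot be told apart from less RNA per cell.

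The counts table holds no sequence, and 36 of the 54 genes matched a promoter window in RefSeq (GRCm38.p6, the mm10 assembly), from 250 bases before to 50 bases after the annotated start. The windows of the pair that led in skin and of 3 simple keratins that are high in the gut are shown 5′ to 3′ on the gene's strand, since these genes set the tissue pattern described below. They are Krt77 at chr15:101869656-101869955 on the minus strand, Krt10 at chr11:99389315-99389614 on the minus strand, Krt8 at chr15:102004293-102004592 on the minus strand, Krt18 at chr15:102027966-102028265 on the plus strand and Krt20 at chr11:99438104-99438403 on the minus strand. Capitals mark matches on either strand to a TATA box (TATAAA) or a CCAAT box (CCAAT).
Krt77: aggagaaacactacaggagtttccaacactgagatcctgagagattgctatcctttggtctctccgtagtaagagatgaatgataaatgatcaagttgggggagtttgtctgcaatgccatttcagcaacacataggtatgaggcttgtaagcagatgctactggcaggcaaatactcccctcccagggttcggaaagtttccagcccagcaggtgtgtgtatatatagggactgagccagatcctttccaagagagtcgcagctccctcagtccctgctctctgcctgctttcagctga
Krt10: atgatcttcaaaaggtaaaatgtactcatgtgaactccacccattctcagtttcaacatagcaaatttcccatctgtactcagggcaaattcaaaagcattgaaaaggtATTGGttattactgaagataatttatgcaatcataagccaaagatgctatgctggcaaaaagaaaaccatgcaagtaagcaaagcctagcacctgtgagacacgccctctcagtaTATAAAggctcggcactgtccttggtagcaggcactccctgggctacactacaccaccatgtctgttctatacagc
Krt8: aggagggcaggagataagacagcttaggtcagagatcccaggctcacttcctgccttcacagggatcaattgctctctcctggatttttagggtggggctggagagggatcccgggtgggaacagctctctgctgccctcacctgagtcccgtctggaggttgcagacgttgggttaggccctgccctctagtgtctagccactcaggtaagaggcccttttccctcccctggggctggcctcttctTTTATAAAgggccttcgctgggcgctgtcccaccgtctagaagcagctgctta
Krt18: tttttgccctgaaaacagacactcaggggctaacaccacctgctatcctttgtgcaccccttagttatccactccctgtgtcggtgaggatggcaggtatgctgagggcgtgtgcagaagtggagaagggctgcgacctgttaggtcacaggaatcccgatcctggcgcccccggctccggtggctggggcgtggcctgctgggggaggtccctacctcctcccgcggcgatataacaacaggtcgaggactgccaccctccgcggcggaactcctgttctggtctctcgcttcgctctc
Krt20: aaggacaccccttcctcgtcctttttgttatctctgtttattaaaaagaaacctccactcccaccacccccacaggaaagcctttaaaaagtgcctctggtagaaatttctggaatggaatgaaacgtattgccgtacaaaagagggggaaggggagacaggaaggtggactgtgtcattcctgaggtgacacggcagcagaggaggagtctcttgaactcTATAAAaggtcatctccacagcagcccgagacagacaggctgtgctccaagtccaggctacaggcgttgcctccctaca
Krt10 and Krt20 held TATAAA, its first base at position -26 in Krt10 and -29 in Krt20, counted from the annotated start. Krt10 also held a CCAAT box on the other strand at -141. In Krt8 the match lay across the annotated start, at -1, and overlapped a match on the other strand at -3. Krt77 and Krt18 held neither motif in these windows, and the other 2 motifs searched had no match in any of the 5. Over all 36 windows 19 held TATAAA, against 13.6% of the 32851 promoters in the table. In 13 of the 36 windows, or 36.1%, a match on either strand began 20 to 40 bases before the start, against 2.50% of all promoters. The 13 all lay on the gene's strand, which was not required of either share. By class those 13 were 1 of 5 simple, 3 of 13 stratified and 9 of 17 hair genes, most of which had hardly any count in these tissues. CCAAT was in 14 of 36 windows against 37.4% of all promoters, the GC box GGGCGG in 2 against 35.7% and the AP-1 motif TGANTCA in 1 against 7.81%. These are matches of letters and not measured binding sites.

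Keratin RNA differed between tissues by 3 orders of size. Summed over all 54 genes it was 33978 ± 1709 CPM in skin (SD, n = 4, as for all tissue means), 5962 ± 689 in colon, 5504 ± 894 in small intestine, 2375 ± 1186 in female reproductive tract, 918 ± 48.3 in lung, 765 ± 21.5 in thymus, 425 ± 50.8 in liver and 265 ± 9.86 in kidney. The inguinal lymph node had 127 ± 102 CPM and brain 108 ± 20.7 CPM, and heart, blood, spleen, mesenteric lymph node and bone marrow had means between 25 and 69.2 CPM. The 4 skin libraries stood above every other library, while colon and small intestine overlapped. By class, stratified keratins made up 98.3% ± 0.131 of the keratin counts in skin, and simple keratins 99.6% ± 0.0739 in small intestine, 99.4% ± 0.0405 in colon, 86.9% ± 1.04 in kidney and 84.6% ± 1.89 in lung. The thymus held both classes in every library, 57.1% ± 2.47 simple and 42.1% ± 2.38 stratified. Simple keratins made up 13.2% to 91.6% of the keratin counts in the female reproductive tract, 76.4% to 98.0% in liver and 13.5% to 82.1% in the inguinal lymph node, so in these tissues the libraries differed among themselves.

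**Figure D1:**
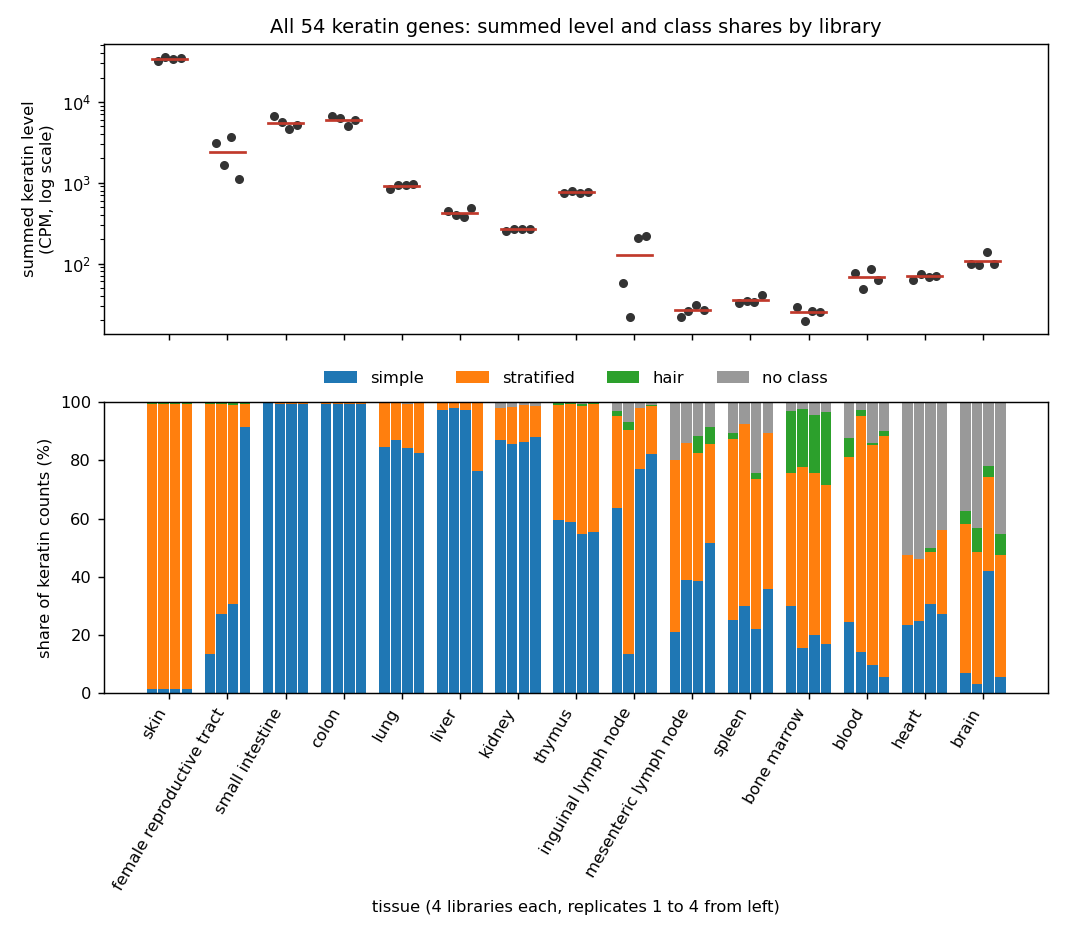
Summed level of the 54 keratin genes in each library (upper plot, CPM on a log scale, points are libraries and red lines are means of 4) and the share of each class in the library's keratin counts (lower plot, percent, 4 bars per tissue). Skin is nearly all stratified and both gut tissues nearly all simple, thymus holds both, and the female reproductive tract and inguinal lymph node change from library to library.

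Of the 29 genes with at least 5 CPM in a tissue, 15 had their highest mean in skin, 5 in the female reproductive tract, 3 in colon, 3 in brain and 1 each in small intestine, lung and liver. In 19 of the 29 the libraries of the highest tissue did not overlap those of the next. The same share was not computed for all genes, so this count does not set the keratins apart from them. Krt10 had counts in all 15 tissues, and outside skin its tissue means ran from 1.35 CPM in bone marrow up to 32.3 CPM in the female reproductive tract.

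**Figure D2:**
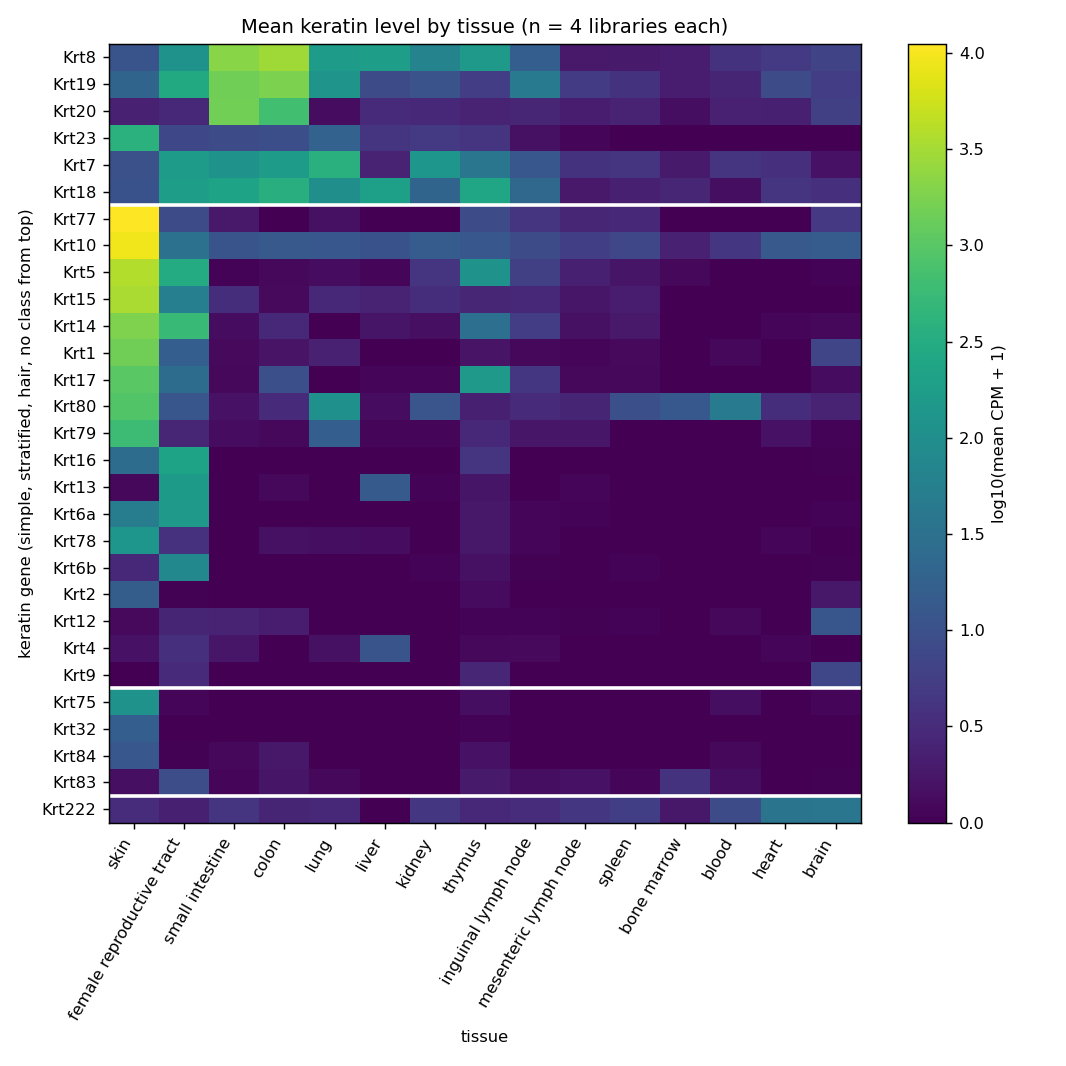
Mean level of the 29 keratin genes with at least 5 CPM in a tissue (rows, from top simple, stratified, hair and no class) in the 15 tissues (columns), as log10(mean CPM + 1) of 4 libraries. The stratified block is bright in skin, part of it again in the female reproductive tract and thymus, and the simple block is bright in both gut tissues, while Krt222 stands out in heart and brain.

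In skin 18 of the 27 tested keratins rose against the mean of the other tissues and Krt8 alone fell, where 18.4% of all tested genes were called higher and 6.38% lower. The 18 were 14 of 17 stratified, 1 of 6 simple and all 3 tested hair genes. The 3 hair genes and the stratified Krt2 reached a mean of 1 CPM in skin alone. They passed the filter on low counts only through skin, so their higher calls there followed from the filter. The same holds for the stratified Krt78, with a mean of 131 CPM in skin and at most 2.72 CPM in any other tissue. Of the keratinocyte genes other than keratins all 12 of the list had counts, and they summed to 23688 to 26558 CPM. Krt77, a type II keratin of the mouse epidermis, was the highest keratin of the series at 10511, 11443, 11087 and 11433 CPM in the 4 skin libraries, against at most 18.7 CPM in any library of another tissue. Its gene lies at chr15:101858731-101869705 (mm10, minus strand). Krt10, the type I keratin of the upper epidermis, had 8033, 9346, 9370 and 9636 CPM in skin and a log2 fold change of 10.03 ± 0.10 (SE, adjusted p = 2.3e-60). Both were tight over the 4 libraries, and Krt77 exceeded Krt10 in each, by 1.18 to 1.31 times. Krt1, the type II partner usually named for Krt10, averaged 1479 ± 104 CPM and was 0.146 to 0.178 times Krt10 in the same libraries, so the more abundant type II chain RNA beside Krt10 in this skin was Krt77.

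The basal keratins were high too. Krt5 had 3708, 4120, 3701 and 3720 CPM and its type I partner Krt14 had 1792, 1834, 1845 and 1828 CPM, a ratio of 2.09 ± 0.108. Krt15, a type I keratin of basal cells and of the hair follicle bulge, had 2982, 3915, 2982 and 3537 CPM. Krt17, known from the hair follicle and from activated keratinocytes, averaged 1031 ± 140 CPM, Krt80 874 ± 36, Krt79, known from the follicle's upper duct, 584 ± 86.6 and Krt78 131 ± 7.3. The injury-associated pair Krt6a and Krt16 was far lower, at 48.5 ± 18.3 and 25.7 ± 5.1 CPM. Krt23 is classed as a simple keratin, but its level in skin, at 368, 377, 365 and 398 CPM, lay 20.9 times above that in lung, the next tissue, without overlap.

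Of the 24 hair genes only Krt75, Krt32, Krt84 and Krt83 reached 5 CPM in a tissue and 15 stayed under 1 CPM everywhere. Krt75, a type II keratin of the follicle's companion layer, had 119, 121, 104 and 107 CPM in skin and at most 0.439 CPM as a mean elsewhere. Krt32 averaged 15.2 ± 7.2 CPM and Krt84 11.7 ± 2.3 CPM in skin. The shaft keratins Krt31, Krt33a, Krt33b, Krt34, Krt35, Krt81 and Krt82 were under 1 CPM, although 36 of the 58 keratin-associated protein genes of the hair shaft had a count in skin, summing to 64.5 to 87.2 CPM per library. Krt83 differed from the other 3 in being highest outside skin, with 9.9, 7.2, 14.5 and 0.9 CPM in the female reproductive tract, and did not pass the filter on low counts.

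The simple keratins of skin changed from library to library. Krt18 had 20.0, 2.9, 12.9 and 1.9 CPM, Krt19 33, 11.9, 31 and 1.9, Krt7 15.4, 7.6, 9.9 and 3.8, and Krt8 12.3, 9.1, 17.4 and 1.9. Replicates 1 and 3 were the highest for each of Krt8, Krt18, Krt19 and Krt7, and replicate 4 the lowest. Summed mammary epithelium markers, with 10 of 12 detected, were 209, 119, 170 and 86.0 CPM in the same libraries, and the milk protein genes Csn2 and Wap had no count. The list is not particular to mammary tissue, since its member Ltf brought it to 1686 to 2071 CPM in bone marrow, and Prlr to 658 to 836 CPM in liver and 453 to 540 CPM in kidney. The part of mammary tissue in these values was not tested. The fall of Krt8 in skin had a log2 fold change of -1.40 ± 0.45 (SE, adjusted p = 0.0076) and was not called without replicate 4.

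The female reproductive tract held the second set of stratified keratins, but unevenly. Of the 27 tested keratins 21 rose against the other tissues, 15 of 17 stratified and 5 of 6 simple among them, where 23.1% of all genes were called higher. None was called lower, where 5.31% of all genes were. Some of the higher calls rested on few reads, such as Krt75 with 3 counts over the 4 libraries and Krt9 with 4. Krt14 had 893, 402, 837 and 11.1 CPM in replicates 1 to 4 and Krt5 had 774, 344, 120 and 10.2. Krt13, a type I keratin of non-cornified stratified epithelium, had 219, 119, 289 and 19.6 CPM. It passed the filter on low counts only through this tissue, so its higher call here followed from the filter. Krt6a had 374, 130, 91.4 and 0, and Krt16 42.7, 10.0, 827 and 0. Replicate 4 was thus the lowest for each of these 5, and at 0 for Krt6a and Krt16. The simple keratins did not follow that order, with Krt19 at 130, 151, 505 and 350 CPM, Krt18 at 78.3, 121, 220 and 282 and Krt8 at 85.8, 105, 102 and 168. Replicate 3 was the shallowest library of the series. Uterus and vagina markers, with 9 of 10 detected, summed to 1324, 929, 860 and 6504 CPM, and the uterine gene Sprr2f alone to 21.3, 8.4, 51.9 and 2982. The cornified envelope gene Lor was at 1.5, 2.1, 49.8 and 7.7 CPM. Which segments of the tract each library holds is not labelled, and its part in these differences was not tested. Without replicates 3 and 4, and without 3 other libraries in doubt, 23 keratins were called higher.

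**Figure D3:**
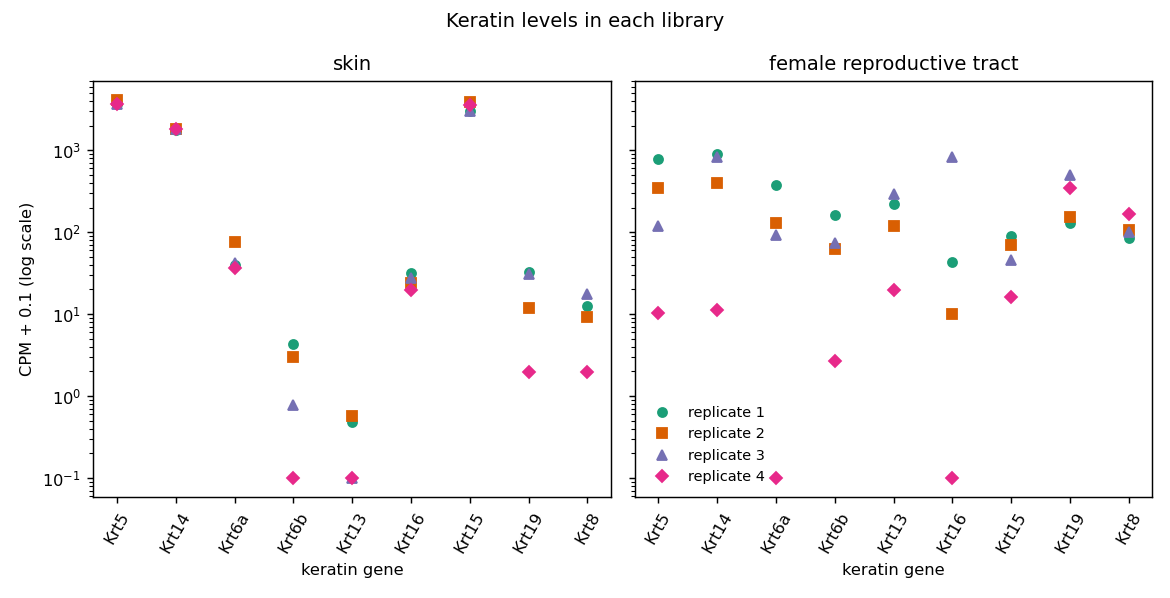
Level of 9 keratins in each of the 4 skin libraries (left) and 4 female reproductive tract libraries (right), as CPM + 0.1 on a log scale, with 1 marker per replicate. Skin libraries lie close together for Krt5, Krt14 and Krt15, while replicate 4 of the female reproductive tract is lowest for every stratified keratin drawn and replicate 3 is highest for Krt16.

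Skin and the female reproductive tract were also tested against each other. Skin was higher for 14 and lower for 6 of the 23 keratins tested on these 8 libraries, where 14.6% of all genes were higher and 14% lower. Krt2, Krt32, Krt75, Krt78, Krt79 and Krt84 passed the filter on low counts here through skin alone. Krt13 passed it through the reproductive tract alone. The direction of these calls therefore followed from the filter. Krt77 had a log2 fold change of 10.94 ± 0.76 (SE, edgeR adjusted p = 6.36e-07), Krt79 of 8.66 ± 0.49 (adjusted p = 1.31e-07) and Krt10 of 7.95 ± 0.66 (adjusted p = 2.27e-06). Krt75 had 1095 counts in skin and 3 in the reproductive tract, a scaled ratio of 377 (95% interval 129 to 1831, counting error only). Krt32 had 141 counts in skin and 0 in the reproductive tract, which makes it at least 48.5-fold higher with 3 counts over the 4 libraries as the floor. The 6 lower genes were Krt13, Krt6b and the simple keratins Krt7, Krt8, Krt18 and Krt19. Krt13 had 2 counts in skin and 1578 in the reproductive tract. Krt6b had 4.2, 2.9, 0.7 and 0 CPM in skin and 162, 61.7, 74.8 and 2.6 CPM in the reproductive tract, with a log2 fold change of -5.39 ± 0.95 (adjusted p = 0.000838). Krt7 had a log2 fold change of -4.21 ± 0.51 (adjusted p = 5.05e-05) and Krt18 of -4.24 ± 0.63 (adjusted p = 0.000217). Krt14 did not pass, at 1.66 ± 0.78 (adjusted p = 0.115), nor did Krt16, at -3.12 ± 1.32 (adjusted p = 0.0817), or Krt6a, at -1.77 ± 0.85 (adjusted p = 0.121). Without replicates 3 and 4 of the reproductive tract Krt14 was called higher and Krt6a lower, and 10 keratins were lower instead of 6.

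In both gut tissues all 6 simple keratins rose against the other tissues. With Krt12 this made 7 of 27 in small intestine, where 19.9% of all genes rose, and with Krt12, Krt17 and Krt84 it made 9 of 27 in colon, where 17.7% did, with Krt12 in colon not called without replicate 3. Over the 4 libraries Krt12 had only 13 counts in small intestine and 5 in colon, and Krt84 only 4 in colon. Krt80 fell in both, where 8.50% of genes fell in small intestine and 14.4% in colon. Krt8, the type II keratin of simple epithelium at chr15:101996698-102004482 (mm10, minus strand), had 2684, 2188, 1695 and 1976 CPM in small intestine and 3352, 3192, 2345 and 2922 CPM in colon, and the libraries overlapped. Krt19, a type I keratin of simple and ductal epithelia, had 1587, 1598, 1414 and 1367 CPM in small intestine and 1881, 1981, 1545 and 1752 CPM in colon. Krt20, a type I keratin known from differentiated gut epithelium, had 2050, 1406, 1106 and 1470 CPM in small intestine and 826, 546, 578 and 654 CPM in colon, without overlap. Outside the gut no tissue mean of Krt20 was above 4.9 CPM. Krt18 had 227, 236, 247 and 179 CPM in small intestine and 346, 367, 361 and 361 CPM in colon, all above the small intestine. Against the other tissues the log2 fold changes in small intestine and colon were 9.38 ± 0.15 and 8.08 ± 0.17 for Krt20, 6.80 ± 0.20 and 7.30 ± 0.20 for Krt8 and 6.76 ± 0.24 and 7.04 ± 0.24 for Krt19.

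Tested directly, small intestine against colon called 1 of 8 keratins higher and 1 lower, where 13.5% of all genes were higher and 12.2% lower. Krt20 was higher, with a log2 fold change of 1.07 ± 0.16 (SE, edgeR adjusted p = 2.33e-05). Krt17, with 2 counts in small intestine and 38 in colon, was lower, at a scaled ratio of 0.0254 (95% interval 0.00297 to 0.0984, counting error only). It passed the filter on low counts here through colon alone, so the direction of its call followed from the filter. Krt18, Krt7, Krt8 and Krt19 had log2 fold changes of -0.83 ± 0.12, -0.65 ± 0.11, -0.61 ± 0.14 and -0.40 ± 0.11 with adjusted p of 1.36e-05, 7.77e-05, 0.00154 and 0.0071, all short of the fold needed for a call. Scaling by library totals instead put the median of all genes at -0.44 instead of -0.03 and made the split 0 higher and 4 lower, with Krt20 at 0.66. Ratios within a library do not depend on that scaling. Krt20 was 0.643 to 0.764 times Krt8 in small intestine and 0.171 to 0.247 times Krt8 in colon, without overlap, whereas Krt19 over Krt8 overlapped, at 0.591 to 0.834 in small intestine and 0.561 to 0.659 in colon.

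Lung, liver and kidney had simple keratins at lower and different levels. In lung 7 of 27 keratins rose, 5 of them simple, where 16.8% of all genes did, and Krt20 fell, where 12.3% did, a call that was lost without replicate 2. Krt7, a type II keratin of ductal and airway epithelia, was highest of all tissues here, at 318, 371, 382 and 385 CPM (log2 fold change 5.17 ± 0.19, adjusted p = 1.7e-31). Krt8 had 136, 187, 179 and 170 CPM, Krt19 131, 127, 125 and 119 and Krt80 95, 91.4, 107 and 136. Krt80, a type II keratin found in many epithelia, Krt79, at 15 ± 2.8 CPM, and Krt10, at 11.4 ± 2.0 CPM, gave lung 15.1% ± 1.96 stratified keratin counts without Krt5, Krt14 or Krt17, none of which reached 1 CPM as a mean. Krt80 shares 263 exon bases with the antisense gene Gm35853, which had 596 counts over the 60 libraries, and no source used here says whether strand was used in counting.

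In liver Krt18, Krt8, Krt23 and Krt13 rose, 4 of 27 where 18.4% of all genes did, and Krt7, Krt80 and Krt222 fell, where 16.7% did. Hepatocytes are known to rely on KRT8 and KRT18 alone. Krt18 had 228, 172, 185 and 188 CPM and Krt8 196, 201, 170 and 160. Krt19, a bile duct keratin, was at 6.7, 5.1, 4.7 and 13.2 CPM and Krt7 at 0.7 to 2.0. Krt13 had 0, 0, 0 and 51.4 CPM and Krt4, its type II partner in non-cornified stratified epithelium, 0, 0, 0 and 41.1, so both rested on replicate 4. That library also held Krtdap at 20.6 CPM, against 0 in the others, and Lor at 29.4 CPM, against 0 to 2.0, and its keratinocyte list, with 9 of 12 genes detected in liver, summed to 70.5 CPM, against 5.3 to 9.4. Without replicate 4 the log2 fold change of Krt13 was -1.65. The part of other tissue in that library was not tested. In kidney Krt7, Krt8, Krt23 and Krt15 rose, 4 of 27 where 21.8% of all genes did, and none fell, where 9.52% did. Krt15 was not called without replicate 1, 2 or 3. Scaled by library totals, 2 rose in kidney, Krt7 and Krt23, and 2 fell, Krt19 and Krt20, and in liver 6 fell instead of 3. That scaling called 7497 of all 18562 tested genes lower in liver instead of 3100, with the median of all genes at -1.23. In kidney it called 2920 lower instead of 1767, with that median at -0.40. Krt7 had 122, 134, 139 and 128 CPM and Krt8 61.4, 60.9, 59.5 and 76.7, and Krt18 was at only 18.9 ± 3.2.

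Liver was higher than kidney for 2 and lower for 2 of 6 tested keratins, where 15.3% of all genes were higher and 21.8% lower. Krt18 had a log2 fold change of 3.38 ± 0.13 (SE, edgeR adjusted p = 1.92e-14), Krt8 of 1.53 ± 0.11 (adjusted p = 3.6e-10) and Krt7 of -6.45 ± 0.20 (adjusted p = 9.96e-16). Krt80 had 2 counts in liver and 123 in kidney, a scaled ratio of 0.0324 (95% interval 0.00388 to 0.120, counting error only). Krt7 and Krt80 passed the filter on low counts here through kidney alone, so the direction of their calls followed from the filter. Scaled by library totals, which put the median of all genes at -0.67 instead of -0.05, the split was 1 higher and 3 lower, with Krt8 no longer called.

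**Figure D4:**
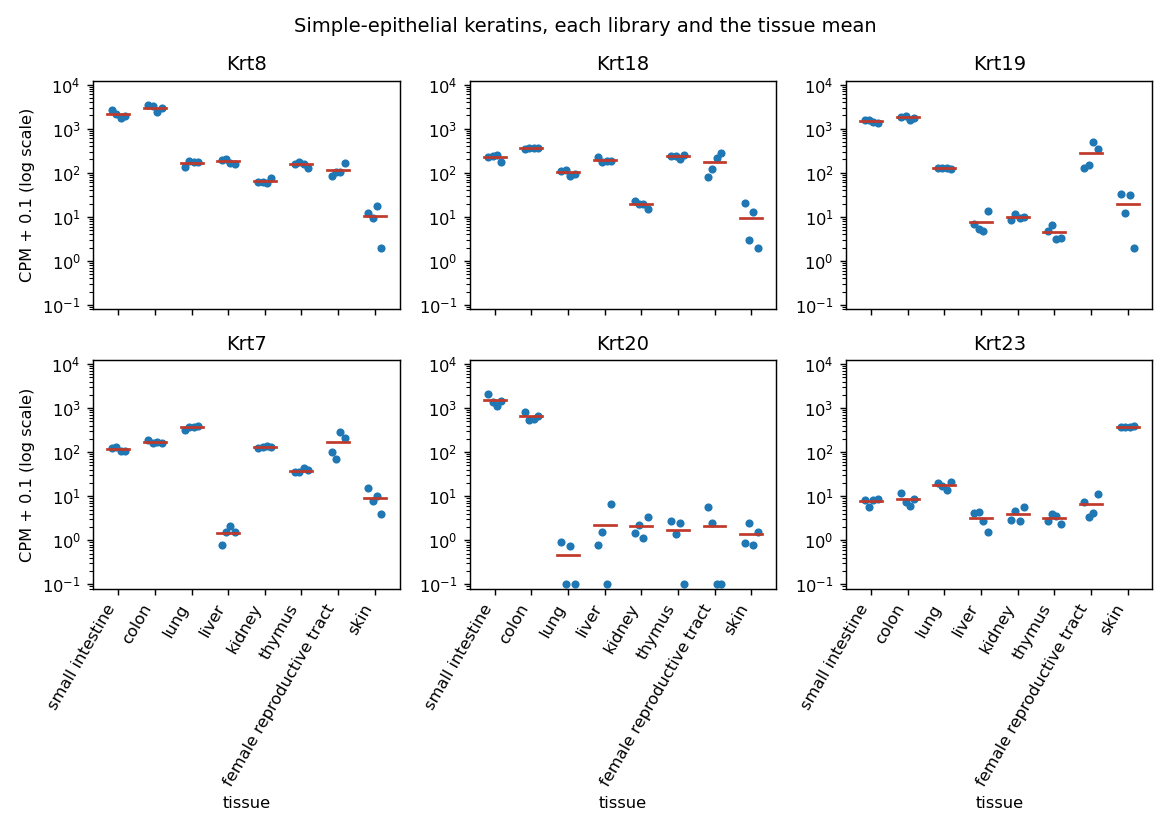
Levels of the 6 simple keratins in each library of 8 tissues, as CPM + 0.1 on a log scale, with red lines at the mean of 4 libraries. Krt8 and Krt19 are highest in both gut tissues, Krt20 is high there only, Krt7 is highest in lung, and Krt23 is highest in skin.

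The balance of Krt8 to Krt18, which pair in the filament, differed between organs. Within a library, in tissues where both had at least 20 counts in all 4, Krt8 was 9.75 ± 2.20 times Krt18 in small intestine, 8.25 ± 1.34 in colon, 3.56 ± 1.14 in kidney, 1.70 ± 0.381 in lung, 0.950 ± 0.152 in liver, 0.756 ± 0.283 in the female reproductive tract and 0.666 ± 0.125 in thymus. The libraries of small intestine and colon overlapped each other and lay above all libraries of the other 5 tissues. Colon and small intestine also held other type I chains, and summed over all keratins type I made up 59.1% ± 1.20 of counts in small intestine, 47.7% ± 1.54 in colon, 46.4% ± 0.901 in skin and 57.6% ± 5.05 in thymus, against 28.4% ± 3.29 in lung and 20.8% ± 1.58 in kidney. These are RNA counts from 3′ ends and not protein, so they do not measure the pairing itself. Over the 15 tissue means the known partners had Pearson correlations of log2(CPM + 1) of 0.94 for Krt8 and Krt18, 0.97 for Krt5 and Krt14, 0.94 for Krt1 and Krt10 and 0.98 for Krt6a and Krt16. Other pairs examined had 0.94 for Krt77 and Krt10, 0.83 for Krt8 and Krt19 and 0.77 for Krt7 and Krt19. Krt8 and Krt20 had 0.72, as did Krt6a and Krt17. The type II keratin most like Krt10 was Krt78, at 0.97. Krt32 was most like Krt75, at 1.00 after rounding. Points share libraries and depth, and much of these values comes from the few tissues in which a gene is high.

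In thymus 15 of 27 keratins rose, 9 of 17 stratified and 4 of 6 simple among them, where 18.9% of all genes did, and Krt19 and Krt80 fell, where 12.1% did. The thymus holds an epithelial stroma, with KRT8 known from its cortical and KRT5 and KRT14 from its medullary cells. The 7 thymic epithelium markers were all detected, summing to 2031 to 2377 CPM. Krt18 had 239, 242, 201 and 258 CPM, Krt8 157, 176, 157 and 127, Krt17 124, 133, 134 and 191 and Krt5 112, 134, 124 and 84.8. Krt14 was at 29.6 ± 5.3 CPM, so Krt5 was 2.72 to 6.12 times Krt14, above the 2.01 to 2.25 of skin. Krt17 was 0.988 to 2.25 times Krt5 in thymus and 0.240 to 0.295 times Krt5 in skin. Krt7 was at 38.2 ± 3.9 CPM and Krt19 at 4.4 ± 1.6 CPM. The remaining 9 calls were of genes at low levels, such as Krt77 at 4.7, 4.2, 7.1 and 13.8 CPM. Krt16, at 1.5, 2.6, 4.2 and 4.1 CPM, was not called without replicate 1. Others of the 9 rested on few reads, with 4 counts over the 4 libraries for Krt2, 6 for Krt75 and 8 for Krt84.

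Against the inguinal lymph node, 7 of 9 tested keratins were higher in thymus and 1 lower, where 12.4% of all genes were higher and 16.5% lower. Krt17 had a log2 fold change of 5.61 ± 0.41 (SE, edgeR adjusted p = 8.97e-08), Krt5 of 4.66 ± 0.37 (adjusted p = 1.74e-07), Krt18 of 3.48 ± 0.58 (adjusted p = 0.000174) and Krt8 of 3.45 ± 0.55 (adjusted p = 0.00011). Krt19 was lower, at -3.27 ± 0.92 (adjusted p = 0.00766), a call that was lost without replicate 3 or without replicate 4.

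The inguinal lymph node lies in the subcutaneous fat beside the mammary gland, and its keratins changed together from library to library. Krt19 had 13.7, 0.4, 74.4 and 86.8 CPM, Krt18 8.3, 0.4, 39.4 and 41.3, Krt8 6.3, 0.2, 25.5 and 28.4, and Krt7 4.4, 0.4, 18.8 and 22.6. Replicate 2 was near 0 and replicates 3 and 4 high for all 4 genes, and Krt14, at 1.3, 0, 6.7 and 9.6 CPM, had the same order. The mammary list, with 10 of 12 genes detected, summed to 35.5, 3.4, 181 and 151 CPM. Its members Prlr, at 18.7, 0.8, 88.3 and 63.9 CPM, and Csn3, at 1.0, 0, 9.4 and 7.9, were low in replicate 2 too, while the milk protein genes Csn1s1 and Wap had no count and Lor was at 0.7 to 3.7 CPM. The part of mammary tissue in these keratin levels was not tested. Against the other tissues Krt19, Krt5, Krt14, Krt17 and Krt77 rose, 5 of 27 where 17.1% of all genes did, and this was 1, Krt77, without replicate 3 and 3 without replicate 4. These calls are against a mean of log levels, and all 5 genes lay far below their highest tissue. Krt19 averaged 43.8 CPM here against 1790 CPM in colon, and Krt5 4.87 CPM against 3812 CPM in skin. Krt14 was also not called without replicate 1, with a replicate block, or with DESeq2's size factors or its Wald test. Krt80 fell, where 6.70% of all genes did, and with DESeq2's size factors Krt8 and Krt10 fell too.

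Against the mesenteric lymph node 1 of 4 tested keratins was higher and 0 lower in the inguinal node, where 1.78% of all genes were higher and 5.44% lower. This was Krt19, at 4.2 ± 2.7 CPM in the mesenteric node and a log2 fold change of 3.26 ± 1.03 (SE, edgeR adjusted p = 0.0310). It was not called without replicate 3 or without replicate 4, and 4 keratins were called without replicate 2. The mammary list summed to 12 to 32.7 CPM in the mesenteric node.

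**Figure D5:**
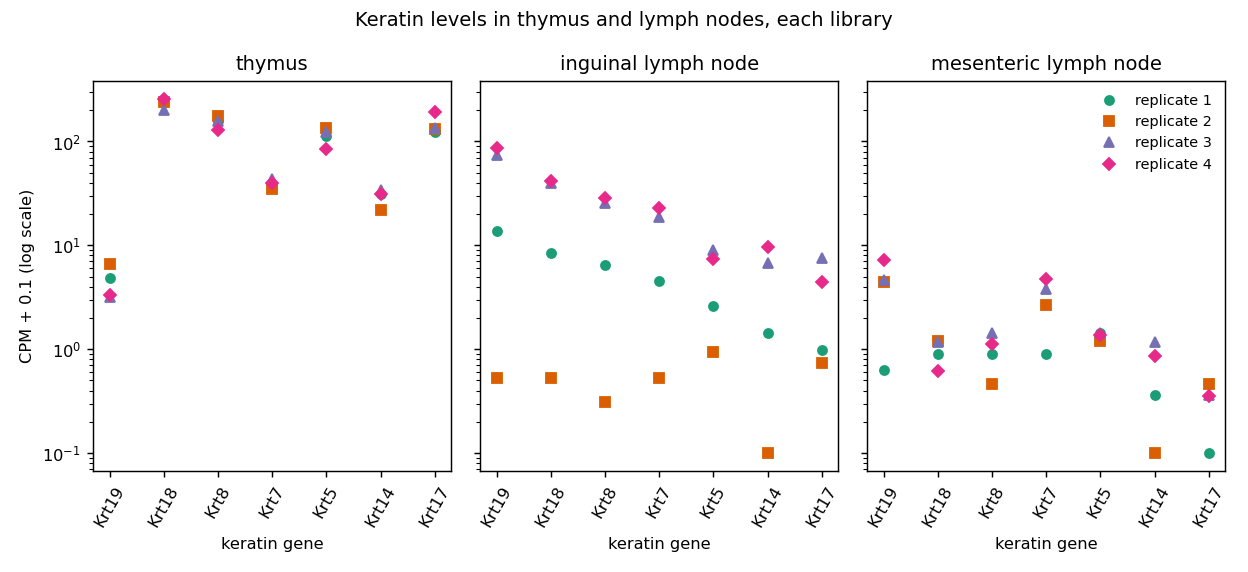
Levels of 7 keratins in each library of thymus, inguinal lymph node and mesenteric lymph node, as CPM + 0.1 on a log scale, with 1 marker per replicate. Thymus libraries lie together, those of the inguinal node spread over more than 100-fold for Krt19 with replicate 2 lowest, and those of the mesenteric node stay under 8 CPM.

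In mesenteric lymph node, spleen, bone marrow, blood, heart and brain keratins were low. In the mesenteric node 1 of 27 rose and 7 fell, where 17.2% and 4.58% of all genes did, in spleen 1 and 5, where 17.8% and 9.16% did, and in bone marrow 1 and 6, where 17.6% and 16.1% did. In blood 2 rose and 6 fell, where 18.1% and 17.8% of all genes did, and in heart 1 and 5, where 20.7% and 12.9% did. Krt7, Krt8, Krt18 and Krt19 were among the genes that fell in every one of these 5. Zero counts limit how far a gene can be shown to fall. The single higher call was lost without replicate 1 in the mesenteric node and without replicate 1 or 2 in spleen. Krt80 was called higher in blood and bone marrow, at 37.5, 37.3, 62.4 and 48.6 CPM in blood (log2 fold change 3.18 ± 0.14, adjusted p = 4.7e-28) and 11.5, 10.8, 13.8 and 11.4 CPM in bone marrow (log2 fold change 1.06 ± 0.19, adjusted p = 2.9e-06), and the call in bone marrow was lost when library totals set the scale.

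Krt222 is a type I keratin-like gene at chr11:99232761-99244085 (mm10, minus strand) that the classes above leave out. It had 37, 41.2, 30.5 and 44.1 CPM in brain and 32.3, 40.1, 34.5 and 31 CPM in heart, with overlap, and blood came next at 7.3 ± 4.7 CPM. It rose in each of brain, heart and blood and had no count in liver. In heart the 3 genes without a class, nearly all Krt222, made up 50.1% ± 4.33 of the keratin counts.

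In brain 6 of 27 keratins rose and 5 fell, where 27.7% of all genes rose and 16.1% fell. Beside Krt222 these were Krt12, at 13.2, 10.8, 11.3 and 9.2 CPM, Krt9, at 5.0, 8.8, 5.3 and 6.3, Krt1, at 4.8, 4.8, 7.5 and 7.2, and the lower Krt2 and Krt77. Krt12 and Krt9 passed the filter on low counts only through brain, so their higher calls here followed from the filter. Krt12 is known as the cornea's type I keratin and Krt9 as that of thick footpad skin. The 4 brain libraries were close to each other for each of these genes. Krt12 shares 1007 exon bases with the antisense gene A830036E02Rik, which had 453 counts in brain against 149 of Krt12, and without strand their reads cannot be told apart. Krt8, Krt20 and Krt19 were high in replicate 3 alone, at 1.7, 0.6, 20.7 and 0 CPM, 2.5, 1.1, 13.8 and 2.0 CPM, and 0.8, 0.3, 15.7 and 1.0 CPM. The enterocyte list, with all 8 genes detected, summed to 10.9, 10.2, 132 and 7.9 CPM in the same libraries, and the Paneth cell gene Defa24 to 6.7, 8.5, 394 and 4.6.

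Genes that join keratins to cell contacts were counted in the same fit. Of the desmosome and linker list 16 of 20 tested rose in skin, 15 of 20 in the female reproductive tract, 11 of 20 in small intestine, 10 of 20 in colon and 6 of 20 in thymus, where 18.4%, 23.1%, 19.9%, 17.7% and 18.9% of all genes did. None fell in the first 4 and 1 in thymus. In the other 10 tissues 0 in bone marrow to 9 in heart rose and 1 to 11 fell. In those 10 tissues 16.8% to 27.7% of all genes rose and 4.58% to 17.8% fell. The median log2 fold changes of the list in skin, female reproductive tract, small intestine, colon and thymus were 6.51, 2.26, 1.46, 1.10 and 0.77, where those of all genes lay between -0.15 and 0.08. The CPM means over the other tissues in this paragraph and the next are of tissue means and not of log levels. In skin Dsg1a, a desmosomal cadherin, averaged 705 CPM, against a mean of 0.71 CPM over the other tissues, Pkp1, a desmosomal plaque protein, 685 against 6.07 CPM and Dsc3, another cadherin, 566 against 7.38 CPM. In small intestine Dsc2 averaged 105 CPM, against 19.4 CPM over the other tissues, and Dsg2 381 against 76.9 CPM. Of the list of transcription factors 18 of 24 tested rose in skin, among them Trp63, the regulator of basal keratinocytes, at 276 CPM against 3.37 CPM. In small intestine 13 of 24 rose, among them the gut factors Cdx1, at 192 CPM against 22.5 CPM, and Hnf4a, at 485 against 101 CPM. In thymus 7 of 24 rose, among them Foxn1, which thymic epithelium needs, at 16.6 CPM against 1.07 CPM. The female reproductive tract had 16 higher and colon 11, beside the shares of all genes given above. In skin 1 fell, in the female reproductive tract 1, in small intestine 3, in colon 2 and in thymus 2. In that order 6.38%, 5.31%, 8.50%, 14.4% and 12.1% of all genes fell. In the other 10 tissues 1 in blood to 11 in kidney rose and 0 to 7 fell.

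Of the list of other epithelial genes 12 of 14 tested rose in skin, 14 in the female reproductive tract, 12 in small intestine, 12 in colon and 4 in thymus, where 18.4%, 23.1%, 19.9%, 17.7% and 18.9% of all genes did, with median log2 fold changes of 3.98, 2.83, 4.71, 4.53 and 0.64, and none fell in these 5. In kidney all 14 rose too, with a median of 2.76, and in lung 10, where 21.8% and 16.8% of all genes did. In liver 2 rose and 5 fell, where 18.4% and 16.7% of all genes did. In the other 7 tissues 0 or 1 rose and 4 to 8 fell, where 17.1% to 27.7% and 4.58% to 17.8% of all genes did. Of the 15 tested genes of other intermediate filaments 5 rose in skin, 4 in the female reproductive tract, 9 in small intestine, 10 in colon and 6 in thymus. The shares of all genes in these tissues are those just given, and the medians of the list were -0.76, 0.50, 1.63, 2.00 and 0.72. In small intestine 1 fell and in thymus 4, where 8.50% and 12.1% of all genes did. In brain 8 rose and 4 fell, where 27.7% and 16.1% of all genes did. In the other 9 tissues 0 to 4 rose and 1 to 5 fell, where 16.8% to 21.8% and 4.58% to 17.8% of all genes did. Des, the filament of muscle, averaged 1145 CPM in colon, against 234 CPM over the other tissues.

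The non-keratin genes whose 15 tissue means were most like those of 3 keratins, by Pearson correlation of log2(CPM + 1), are given as a description. For Krt8 they were Smim22, Cldn3, Arhgef16, Spint2 and Tmem30b, at 0.92 to 0.90. For Krt5 they were Psors1c2 at 0.98, Trp63 at 0.96 and Ces2f, Ifi202b and Spink5 at 0.94 to 0.93. For Krt1 they were Nipal4, Il1f8, Tfap2c, Il20rb and Dsc1, at 0.97 to 0.96. Nearby keratin genes share little sequence at the counted end. Over the last 500 bases of their transcripts Krt14 and Krt17 shared 9.53% of their 50-base stretches, Krt31 and Krt33b 2.88%, and Krt16 shared 1.33% with each of Krt14 and Krt17, so the split of reads between Krt14 and Krt17 is the least certain.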

How the data were processed

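The deposited table holds whole-number counts per gene for 54532 genes in 60 libraries, made by the authors with FastQC, STAR, featureCounts and the mm10 build, per the submitters' processing notes. For the tool versions, the annotation and the strand setting: not given in the sources used here. Per the labels' protocols, total RNA was heat-fragmented and primed with barcoded oligo(dT), and libraries were pooled before amplification, so counts come from 3′ ends, and no molecular identifiers are described. Intervals and floors therefore cover counting error only.

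CPM were computed from the counts with TMM factors. edgeR 4.0.16 (R 4.3.3, limma 3.58.1) fitted glmQLFit with tissue as the only term after filterByExpr (minimum count 10, minimum total 15), on 60 libraries for each tissue against the equally weighted mean of the other 14 (18562 genes tested) and on 8 libraries for each of 5 pairs. The mean of the other 14 was taken over fitted log levels. Adjusted p-values are Benjamini-Hochberg over all tested genes, two-sided. The fit was tested on simulated data, with the same spread for every gene and changes only in well-counted genes. That test does not cover calls that rest on few reads or on uneven libraries. Alternatives were library totals, the size factors of DESeq2 1.42.0, its Wald test, no filter, a replicate block and leaving out replicates. After the data had been seen, leaving out the libraries in doubt (replicates 3 and 4 of the female reproductive tract, brain 3, liver 4 and blood 1) was added. For each tissue up to 4 keratins called higher with at least 5 CPM are given in every library, by mean, and for each pair up to 4 in each direction, by fold change. Keratins given in other libraries or tissues, and the markers Csn3, Prlr, Ltf, Sprr2f, Lor, Krtdap and Defa24, were singled out after their values were seen. Members, classes and lists were chosen with earlier results of these data known. Gene positions are from GENCODE M21 and promoters from RefSeq.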

Additional observations from a re-analysis of the deposited data

Results flagged for a closer look

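In 101 groups of 4 libraries (each keratin in each tissue where its mean was at least 5 CPM), 11 had a highest or lowest library far from the other 3 by Dixon's test at the 95% level, which chance does in about 1 in 20 groups. Krt13 was at 51.4 CPM and Krt4 at 41.1 CPM in liver replicate 4, against 0 in the other 3. Krt16 was at 827 CPM in replicate 3 of the female reproductive tract, against 0 to 42.7 CPM, and Krt1 at 54 CPM in the same library, against 0.9 to 4.0 CPM. Krt8 was at 20.7 CPM in brain replicate 3, against 0 to 1.7 CPM, and at 76.7 CPM in kidney replicate 4, against 59.5 to 61.4 CPM. Skin replicate 2 had Krt5 at 4120 CPM, against 3701 to 3720 CPM, and Krt6a at 75.8 CPM, against 36.4 to 41.9 CPM. Krt17 was at 191 CPM in thymus replicate 4, against 124 to 134 CPM. Krt10 was low in colon replicate 3, at 8.39 CPM against 13.4 to 14.3 CPM, and Krt23 in small intestine replicate 2, at 5.67 CPM against 8.28 to 8.69 CPM. What sets these libraries apart was not tested.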

How the results depend on the processing

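DESeq2's size factors made the lower count in inguinal node 3 (1 before) and moved no other count of called keratins by over 1.5 times. Scaling by library totals made the higher counts 2 in kidney (4), 2 in spleen (1) and 0 in bone marrow (1). It made them 0 in small intestine against colon (1) and 1 in liver against kidney (2). The lower counts became 6 in liver (3), 2 in kidney (0) and 4 in small intestine against colon (1). Over all genes the lower counts became 7497 in liver (3100) and 2920 in kidney (1767). Without the filter on low counts the higher counts were 33 in skin (18), 25 in thymus (15), 13 in brain (6), 3 in bone marrow (1), 2 in heart (1), 2 in mesenteric lymph node (1), 2 in small intestine against colon (1), 7 in inguinal against mesenteric node (1), 4 in liver against kidney (2) and 13 in thymus against inguinal node (7), and the lower counts 2 in skin (1), 1 in kidney (0), 11 in skin against female reproductive tract (6) and 4 in liver against kidney (2). DESeq2's Wald test called 3 higher in the inguinal node (5) and 0 in spleen (1, edgeR), and 98 lower calls over the 15 tissues (44).

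Without the libraries in doubt, 2 keratins were higher in mesenteric node (1) and 2 in bone marrow (1), 2 were lower in inguinal node (1) and 10 in skin against female reproductive tract (6), and Krt13 in liver turned to -1.74. Leaving out replicates gave 1 to 2 higher in bone marrow, 1 to 5 in inguinal node, 0 to 1 in mesenteric node, 0 to 1 in spleen and 0 to 4 in inguinal against mesenteric node, 0 to 1 lower in thymus against inguinal node, 0 to 2 in skin, 0 to 1 in lung and 1 to 3 in inguinal node, and -1.65 to 6.85 for the log2 fold change of Krt13 in liver. Same-numbered libraries did not meet the bar for pairing (median correlation 0.016, and 1.67% of 420 pairs above 0.1), while 35 of 60 libraries were most like a library of the same number in another tissue, a hint from the data. With a replicate block 2 keratins were higher in inguinal against mesenteric node (1) and 2 lower in skin (1), and no other count of calls moved by over 1.5 times. Depth limits the low keratins, most of all in replicate 3 of the female reproductive tract and in colon.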
